A study of Mus musculus with 21 samples.

Results

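The expression of 6 genes of cytosine deamination and of the repair that follows it (Apobec1, Apobec3, Ung, Smug1, Msh6 and Pms2) was examined by RNA-seq in B cell precursors. The genes were chosen by symbol from the 24421 genes of the deposited tables, and all 6 were found. RNA was sequenced from primary bone marrow B cell precursors of 53BP1-/- C57BL/6 mice, a background that all conditions share, cultured with 10 ng/ml IL-7. The cells were transduced with the MIGR1 retrovirus, either empty (EV), with human BCR-ABL1p210 (BCR-ABL1) or with mouse C-MYC (C-MYC), and harvested 7 to 9 days later. Each condition had 2 libraries from duplicate experiments, 6 in all, each made from poly(A) RNA of 5000000 cells. Dead cells were removed at harvest, per the study's methods, and the labels describe no sort for transduced cells. The sources used here do not say whether the duplicates came from separate animals, and the p-values measure only the spread between these libraries.

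Libraries held 20687092 to 24095955 counts. Differences are log2 fold changes, and an adjusted p comes, unless another tool is named, from the quasi-likelihood test of edgeR after Benjamini-Hochberg adjustment over all tested genes, with a gene called below 0.05. Values of a condition are given as replicate 1 and replicate 2. Myc, which C-MYC cells were transduced with, had 3869 and 3277 counts in EV libraries, 7239 and 8381 in those of BCR-ABL1 and 37920 and 27450 in those of C-MYC, and the human BCR-ABL1 insert was not measured here. Reads of Trp53bp1, the deleted gene, were still counted in every library, at 342 to 723, and a count for a whole gene does not check a partial deletion. The 10 markers of B cell precursors summed to 6829 and 5989 CPM (counts scaled to library size by TMM) in EV libraries, 6987 and 6303 in those of BCR-ABL1 and 4163 and 3461 in those of C-MYC. The EV libraries also held more transcripts of several other cell types, stroma among them. All 9 neutrophil, 8 T and NK cell and 5 stroma markers were higher in both EV libraries than in any other library. So were 6 of 8 macrophage markers. Of 6 erythroid markers, 4 were at 0 counts in every library. Among these, Hba-a2 had a deposited FPKM of 0.302 to 2.27 and Hbb-b1 of up to 0.236. Their 0 counts therefore do not show that the transcripts were absent. In bulk samples, fewer cells of a type and less RNA per cell cannot be told apart.

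Cytosine deaminases such as the APOBEC family remove the amino group of cytosine, which turns it into uracil. APOBEC1 edits messenger RNA such as that of apolipoprotein B, and APOBEC3 restricts retroviruses. Uracil in DNA is cut out by glycosylases, among them UNG and SMUG1, after which base excision repair fills the gap. A uracil opposite guanine can also be read as a mismatch by a complex that holds MSH6, which calls on a complex that holds PMS2. In germinal centre B cells, UNG and MSH6 process the uracils made in antibody genes during somatic hypermutation and class switching.

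None of the 6 genes was at or near zero counts in any library. The lowest count was 168, for Smug1 in EV replicate 2, and the highest was 9873, for Apobec3 in the same library. All 6 passed the filter on low counts, as did 12786 of the 24421 genes. Levels of different genes were set beside each other in FPKM, which divides by transcript length. Apobec3 was highest, at 101 to 143 FPKM over the 6 libraries, and its mean of 125 lay above that of 94.1% of the genes tested. Pms2 (22.3 to 27.1 FPKM), Msh6 (19.7 to 26.5) and Apobec1 (16.4 to 32.8) followed, with ranges that overlap. Ung ranged from 8.41 to 17.2 FPKM, which overlaps the lowest Apobec1 libraries. Smug1 was lowest, at 1.21 to 2.18 FPKM, with a mean above that of 23.0% of the genes tested. The order of levels depends on how transcript length enters, as the FPKM of the members was 0.391 (Msh6) to 2.87 (Pms2) times what their counts per kilobase give, relative to the median gene. In counts per kilobase of annotated exon, scaled to the median gene, Apobec3 (51.1 to 72.9) and Msh6 (48.7 to 69.0) overlapped, Ung (12.3 to 26.5) and Apobec1 (11.6 to 22.4) overlapped, and Pms2 (7.34 to 9.59) fell to the fifth place. Smug1, at 1.78 to 3.08, was lowest on both scales.

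Ung and Msh6 rose in C-MYC against EV, and Ung was lower in BCR-ABL1 than in C-MYC, while Apobec1, Apobec3, Smug1 and Pms2 were called in no comparison. Counted over the members, edgeR called 0 of 6 in BCR-ABL1 against EV, where it called 17.0% of all tested genes. Apobec1 and Ung had an unadjusted p below 0.05 (0.0133 and 0.0229), while DESeq2 called 1 and limma on FPKM 0. In C-MYC against EV it called 2 of 6, both rises, where it called 43.1% of all genes, 18.6% as rises. In BCR-ABL1 against C-MYC it called 1 of 6, lower in BCR-ABL1, where it called 23.4% of all genes and 11.5% in that direction. With the replicate number as a block the counts were 2, 4 and 1 of 6, where 25.2%, 51.9% and 33.5% of all genes were called. The libraries of the compared conditions did not overlap for 4 of 6 members in each comparison, where this held for 58.9% (BCR-ABL1 and EV), 70.6% (C-MYC and EV) and 69.9% (BCR-ABL1 and C-MYC) of all genes. The share of members is close to these backgrounds. The 3 comparisons share libraries, so that they are not independent of each other.

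Of the other deaminases and cofactors, Apobec4 and A1cf were at or near zero. Apobec4 had 2 and 2 counts in BCR-ABL1 and 0 in the other libraries, and A1cf, a cofactor of APOBEC1, had 1 count in each of EV replicate 1 and BCR-ABL1 replicate 2 and 0 elsewhere. Apobec2, a muscle member of the family, had 5 to 15 counts. Rbm47, another cofactor of APOBEC1, had 83 and 119 counts in EV libraries, 106 and 110 in those of BCR-ABL1 and 50 and 84 in those of C-MYC. Of the 7 genes of the list, 4 were tested, and edgeR called 0 of them in each comparison. At an unadjusted p below 0.05 the counts were 1 (Apobec1), 0 and 0 for BCR-ABL1 against EV, C-MYC against EV and BCR-ABL1 against C-MYC. DESeq2 called 1, 0 and 0, limma on FPKM 0, 1 (Apobec3) and 0, and the replicate block in edgeR 1 (Apobec1), 1 (Apobec3) and 0.

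**Figure D1:**
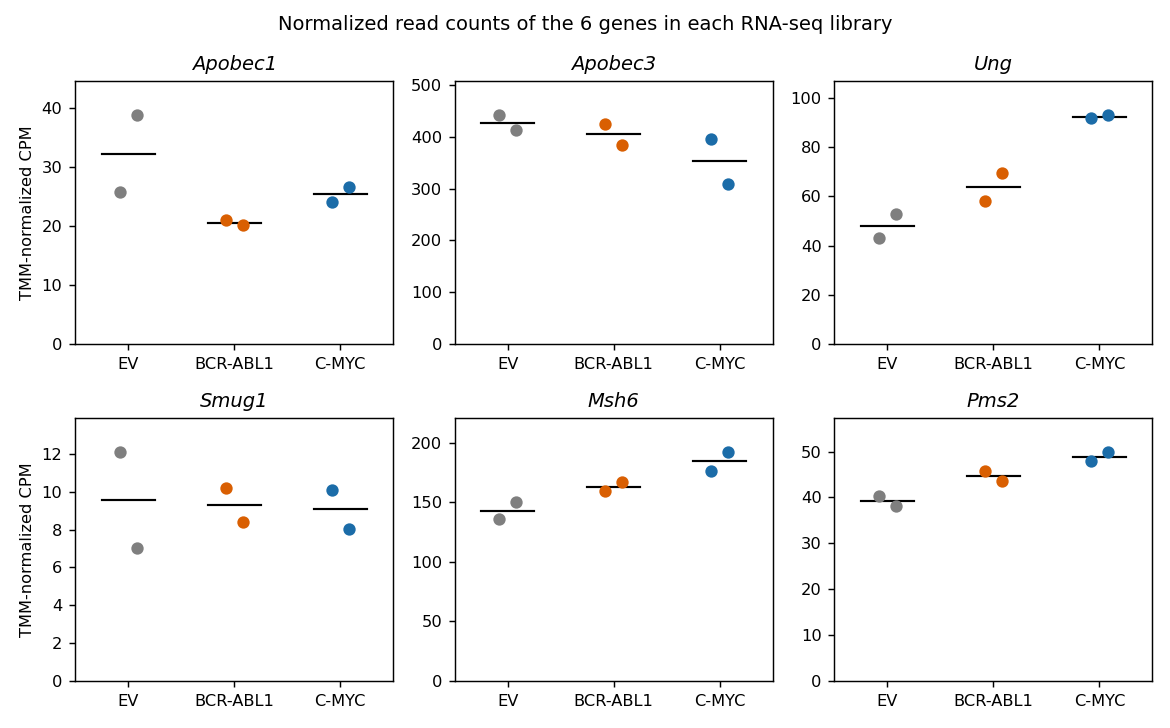
Normalized read counts (CPM after TMM scaling, vertical axis from 0) of the 6 genes in each of the 6 libraries, by condition. Points are libraries and the line is the mean of 2. Ung lies between 43.0 and 52.8 in EV and at 92.0 and 93.0 in C-MYC, while the EV libraries of Apobec1 (25.7 and 38.7) and Smug1 (12.1 and 7.02) are far apart.

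Ung, the main uracil-DNA glycosylase, lies on the forward strand of chromosome 5 (GRCm38, 114130386 to 114139323) and shares no exon bases with another gene. It had 43.0 and 52.8 CPM in EV libraries, 58.3 and 69.6 in those of BCR-ABL1 and 92.0 and 93.0 in those of C-MYC. No library of a condition overlaps those of another, and C-MYC is highest. Means were 47.9 ± 6.95 CPM (EV), 63.9 ± 7.99 (BCR-ABL1) and 92.5 ± 0.658 (C-MYC) (SD, n = 2). Ung was 1.93-fold higher in C-MYC than in EV, a log2 difference of 0.95 ± 0.15 (SE, edgeR adjusted p = 0.00203). It was lower in BCR-ABL1 than in C-MYC, by a log2 difference of -0.53 ± 0.15 (edgeR adjusted p = 0.0350). Against EV, BCR-ABL1 gave a log2 difference of 0.42 ± 0.15, which did not pass (edgeR adjusted p = 0.0959). With the replicate number as a block it passed (edgeR adjusted p = 0.0317), as it did without EV replicate 2 (0.58, adjusted p = 0.0248). The difference between BCR-ABL1 and C-MYC was not called in edgeR (adjusted p in parentheses) without BCR-ABL1 replicate 1 (0.289), BCR-ABL1 replicate 2 (0.0771), C-MYC replicate 1 (0.136) or C-MYC replicate 2 (0.153), nor by limma on FPKM.

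Smug1, the other glycosylase among the 6 members (chromosome 15, 103153290 to 103167092, reverse strand), was called in none of the 3 comparisons. It had 12.1 and 7.02 CPM in EV libraries, 10.2 and 8.39 in those of BCR-ABL1 and 10.1 and 8.04 in those of C-MYC. The EV libraries span those of both other conditions. The log2 differences were -0.04 ± 0.29 for BCR-ABL1 against EV, -0.07 ± 0.29 for C-MYC against EV and 0.03 ± 0.29 for BCR-ABL1 against C-MYC (SE), and the standard error leaves room for a change of either sign. The sign turned without EV replicate 1, to 0.41 in BCR-ABL1 and 0.37 in C-MYC against EV. Within libraries, Ung had 3.55 and 7.52 times the counts of Smug1 in EV libraries, 5.72 and 8.29 in those of BCR-ABL1 and 9.10 and 11.6 in those of C-MYC.

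Msh6, part of a complex that reads mismatches, lies on the forward strand of chromosome 17 (87975062 to 87990892) and shares 34 exon bases with Fbxo11 on the other strand. It had 136 and 150 CPM in EV libraries, 159 and 167 in those of BCR-ABL1 and 177 and 192 in those of C-MYC, so that the libraries of the 3 conditions do not overlap. The mean rose from 143 ± 10.1 CPM in EV to 184 ± 11.0 in C-MYC (SD, n = 2), 1.29-fold, with a log2 difference of 0.37 ± 0.11 (SE, edgeR adjusted p = 0.0256). The call was lost when EV replicate 1 (edgeR adjusted p = 0.0657), BCR-ABL1 replicate 1 (0.0629), BCR-ABL1 replicate 2 (0.0602), C-MYC replicate 1 (0.0592) or C-MYC replicate 2 (0.131) was left out in edgeR, and in limma on FPKM (adjusted p = 0.165). BCR-ABL1, with 163 ± 5.48 CPM (SD, n = 2), did not differ from EV past the threshold (log2 difference 0.19 ± 0.11, SE) or from C-MYC (-0.18 ± 0.11).

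The bases before the starts of Ung and Msh6, the members that passed a test, are shown with the letters searched for there, the E-box known to bind MYC and letters known to bind E2F factors. The Ung sequence is chr5:114130185-114130385 and the Msh6 sequence chr17:87974800-87975049, both forward strand of GRCm38.p6 from RefSeq, with 58.7% and 70.8% G and C. The third is chr17:87975056-87975081 around the Msh6 start, with E2F letters in capitals.
Ung: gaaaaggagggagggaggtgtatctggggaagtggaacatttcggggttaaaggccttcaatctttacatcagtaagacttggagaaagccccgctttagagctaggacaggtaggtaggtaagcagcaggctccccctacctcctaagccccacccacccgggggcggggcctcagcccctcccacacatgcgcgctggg
Msh6: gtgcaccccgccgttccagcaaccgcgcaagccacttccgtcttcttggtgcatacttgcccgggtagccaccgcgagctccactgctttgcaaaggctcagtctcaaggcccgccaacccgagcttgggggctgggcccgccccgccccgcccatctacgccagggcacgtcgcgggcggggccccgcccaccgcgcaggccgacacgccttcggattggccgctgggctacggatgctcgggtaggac
Msh6 start: cctcccgacTTTCCCGCcagcggcgg
In windows of 250 bases before to 50 after the start, the E-box CACGTG was found in none of the 7 windows of the 6 members, while 7.15% of 32851 windows hold it. The E2F letters (TTTCCCGC, TTTCGCGC, TTTGCCGC or TTTGGCGC, on either strand) were found in Msh6 alone, as TTTCCCGC on the forward strand from base 16 after the start, while 2.26% of all windows hold them. These letters were chosen after the sequences were seen, a match is not a binding site, and no match says only that the letters are not in these windows.

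Pms2, the endonuclease of the complex that nicks the strand to be repaired, is on the forward strand of chromosome 5 (143909964 to 143933968). The annotation has it share 394 exon bases with Gm42421 and 85 with Rsph10b, so some of its reads could belong to either. It had 40.3 and 38.2 CPM in EV libraries, 45.8 and 43.6 in those of BCR-ABL1 and 47.9 and 49.9 in those of C-MYC. The libraries of the conditions do not overlap, with the C-MYC libraries highest. The log2 difference between C-MYC and EV was 0.32 ± 0.12 (SE), with an adjusted p of 0.0639 in edgeR. With the replicate number as a block the adjusted p was 0.0411 in that test, while DESeq2 gave 0.0315. BCR-ABL1 against EV gave 0.19 ± 0.12 and BCR-ABL1 against C-MYC -0.13 ± 0.12 (SE). Msh6 had 3.36 to 3.92 times the counts of Pms2 in the 6 libraries, with overlapping conditions.

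**Figure D2:**
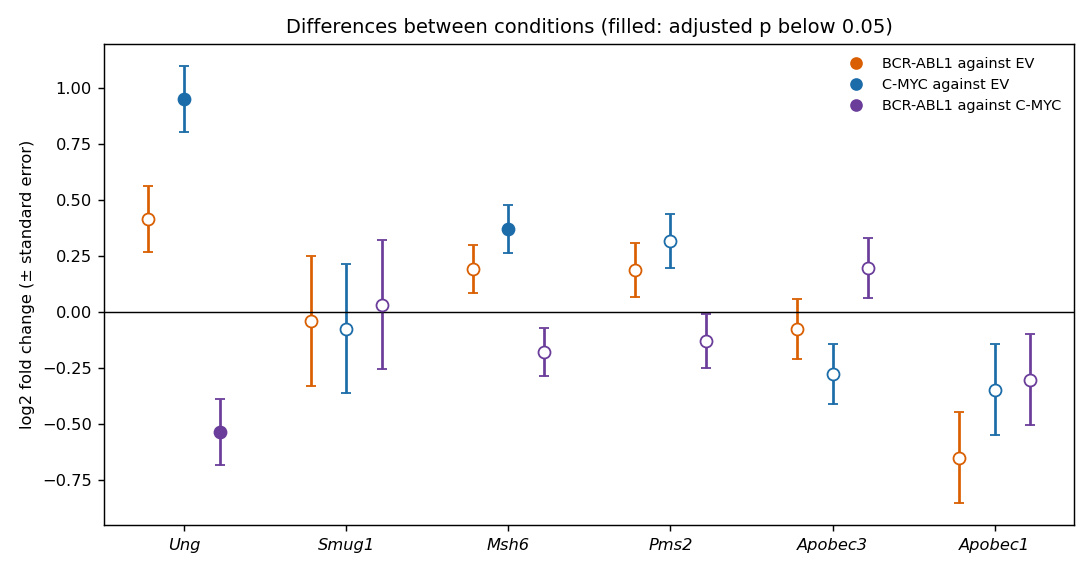
Log2 fold changes (vertical axis) of the 6 genes in the 3 comparisons, with bars of ± 1 standard error. Filled points passed an adjusted p below 0.05: Ung and Msh6 in C-MYC against EV (0.95 and 0.37) and Ung in BCR-ABL1 against C-MYC (-0.53).

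Apobec3 (chromosome 15, 79891659 to 79915906, forward strand) had the highest FPKM of the members. It shares 676 exon bases with D730005E14Rik on the same strand and 100 with Cbx7 on the other strand. Some of its reads could belong to either, and D730005E14Rik itself had 86 to 185 counts a library. It had 441 and 413 CPM in EV libraries, 425 and 385 in those of BCR-ABL1 and 396 and 310 in those of C-MYC. Both C-MYC libraries were below both EV libraries, while BCR-ABL1 overlapped each of the others. The log2 difference between C-MYC and EV was -0.28 ± 0.13 (SE), with an adjusted p of 0.132 in edgeR. It was -0.10 without C-MYC replicate 2 and -0.46 without C-MYC replicate 1 (edgeR adjusted p = 0.0428). With the replicate number as a block it passed (edgeR adjusted p = 0.0338). BCR-ABL1 against EV gave -0.08 ± 0.13 and BCR-ABL1 against C-MYC 0.20 ± 0.13 (SE).

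Apobec1 (chromosome 6, 122577792 to 122602444, reverse strand) had 25.7 and 38.7 CPM in EV libraries, 21.0 and 20.2 in those of BCR-ABL1 and 24.0 and 26.6 in those of C-MYC. Both BCR-ABL1 libraries lay below every other library, and EV replicate 2 lay above all. The log2 difference was -0.65 ± 0.20 (SE) between BCR-ABL1 and EV, with an adjusted p of 0.0675 in edgeR. It was -0.91 without EV replicate 1 (edgeR adjusted p = 0.00383) and -0.32 without EV replicate 2 (0.174). With the replicate number as a block it was -0.63 and passed (edgeR adjusted p = 0.0300). DESeq2 gave 0.0431. C-MYC against EV gave -0.35 ± 0.20 (SE), and -0.61 without EV replicate 1 (edgeR adjusted p = 0.0103) and -0.02 without EV replicate 2. BCR-ABL1 against C-MYC gave -0.30 ± 0.20 (SE). Summed macrophage markers were also highest in EV replicate 2 and lowest in BCR-ABL1. They stood at 877 and 1270 CPM in EV libraries, 146 and 183 in those of BCR-ABL1 and 254 and 441 in those of C-MYC. Of the 8, 7 were higher in EV replicate 2 than in EV replicate 1. Their EV mean was 6.51 times that of BCR-ABL1, while Apobec1 means were 32.2 CPM in EV and 20.6 in BCR-ABL1. Summed stroma markers, at 103 and 157 CPM in EV, were highest in EV replicate 2 too, but lowest in C-MYC (1.75 and 2.56). The summed neutrophil level (1036 and 333 CPM in EV, 26.7 to 41.0 elsewhere) was highest in EV replicate 1. So was that of T and NK markers (134 and 98.2 in EV). The part of other cells in the Apobec1 levels was not tested.

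**Figure D3:**
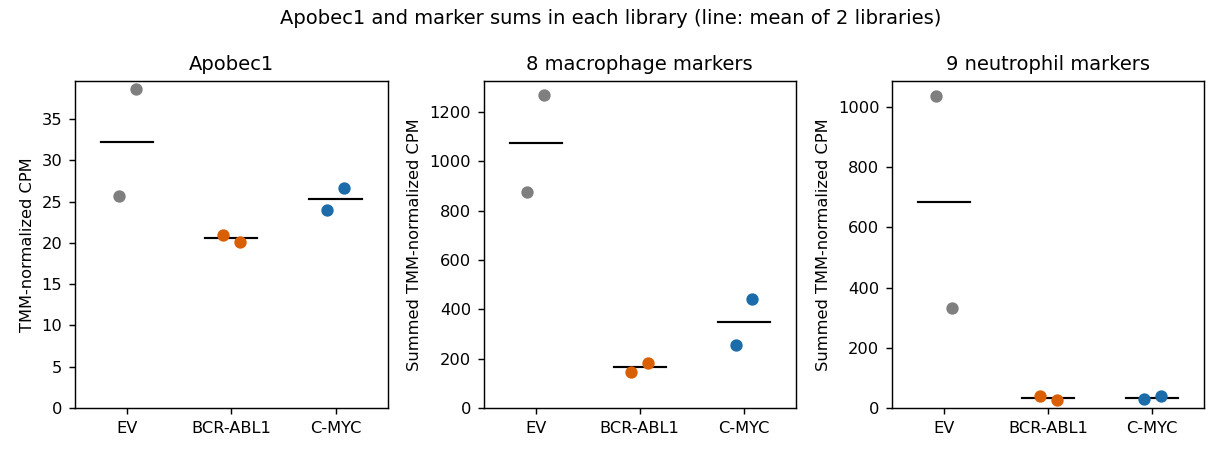
Normalized read counts of Apobec1 and the summed levels of 8 macrophage and 9 neutrophil markers (CPM, vertical axes from 0) in each library, by condition. EV replicate 2 has the highest Apobec1 (38.7) and macrophage level (1270), and EV replicate 1 the highest neutrophil level (1036).

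The other genes of these pathways were read from lists of base excision repair (21 genes, 19 tested), mismatch repair (22, all tested) and S phase (15, all tested). Lig1 stands in both repair lists, and Pcna in those of mismatch repair and S phase. The share of all tested genes called as higher and as lower was 5.08% and 12.0% in BCR-ABL1 against EV, 18.6% and 24.5% in C-MYC against EV, and 11.9% and 11.5% in BCR-ABL1 against C-MYC. In C-MYC, 9 base excision genes rose and 4 fell, with a median log2 difference of 0.28 against EV, beside -0.08 over all tested genes (edgeR). Dut, which keeps uracil out of the DNA precursor pool, rose by 0.76 ± 0.10 (SE, edgeR adjusted p = 0.00123). Apex1, the endonuclease that cuts where a base was removed, rose by 0.92 ± 0.24 (edgeR adjusted p = 0.0184). Nthl1, a glycosylase for oxidized bases, rose by 1.49 ± 0.31 (edgeR adjusted p = 0.00683), while Neil1, another such glycosylase, fell by 1.31 ± 0.19 (edgeR adjusted p = 0.00152). Mbd4, a further glycosylase of this list, fell by 0.76 ± 0.19 (SE, edgeR adjusted p = 0.0149). Ung (0.95 ± 0.15) had the second largest rise in this list, after Nthl1, but its gap to Apex1 is within either standard error. Nthl1 had few counts, with 36 and 65 in EV libraries and 136 and 137 in those of C-MYC. The number of rises was 5 without C-MYC replicate 1. In BCR-ABL1 against EV, 0 base excision genes rose (2 with an unadjusted p below 0.05, 1 by DESeq2 and 0 by limma) and 1 (Neil1) fell, by 0.82 ± 0.19 (edgeR adjusted p = 0.0223), with a median of 0.14 beside 0.00 over all genes. The replicate block called 2 rises and 2 falls. The number of falls was 4 without EV replicate 1 and 0 without either BCR-ABL1 library, and the number of rises 2 without EV replicate 2 and 1 without EV replicate 1. In BCR-ABL1 against C-MYC, 1 was higher and 5 lower, among them Nthl1 (-1.15 ± 0.30, SE) and Parp1 (-0.56 ± 0.11), a sensor of strand breaks, with a median of -0.23. The replicate block called 2 higher and 6 lower. None was called when any 1 BCR-ABL1 or C-MYC library was left out.

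In the mismatch repair list, 14 genes rose and 1 fell in C-MYC, with a median log2 difference of 0.39. The replicate block called 16 rises and 1 fall there. Exo1, the exonuclease that removes the mismatched strand, rose by 0.64 ± 0.14, and Pold2, a subunit of polymerase delta, by 0.80 ± 0.12, while Pold4, another subunit, fell by 1.25 ± 0.20 (SE, edgeR adjusted p = 0.00857, 0.00159 and 0.00230). The number of rises was 9 without either BCR-ABL1 library, 5 without C-MYC replicate 1 and 6 without C-MYC replicate 2, and 8 by limma on FPKM. In BCR-ABL1 against EV, 0 mismatch repair genes rose or fell in edgeR, with 6 higher and 1 lower at an unadjusted p below 0.05. DESeq2 called 3, all rises, and limma 1, a fall, while the replicate block called 5 rises and 1 fall, and leaving out either EV library gave 2 rises. The median was 0.21. In BCR-ABL1 against C-MYC 0 were higher (1 at an unadjusted p below 0.05, 0 by DESeq2, 1 by limma) and 1 was lower, with a median of -0.19. The replicate block called 1 higher and 3 lower. The number lower was 3 without either EV library and 0 without any BCR-ABL1 or C-MYC library.

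The S phase list holds genes whose products act in replication, such as the MCM helicase. In C-MYC 12 of 15 rose and 0 fell, with a median of 0.43 (0 had an unadjusted p below 0.05 in the other direction, and 0 fell by DESeq2 or limma). The replicate block called 13 rises and 0 falls there. Cdc6, which loads the helicase, rose by 0.61 ± 0.11, Gins1, a part of the active helicase, by 0.59 ± 0.15, and Ccne1, cyclin E1, by 0.56 ± 0.12 (SE, edgeR adjusted p = 0.00422, 0.0148 and 0.00670). The number of rises was 5 without C-MYC replicate 1. In BCR-ABL1 against EV 2 rose and 0 fell, with a median of 0.29, and in BCR-ABL1 against C-MYC 0 were called, with a median of -0.13 (2 lower at an unadjusted p below 0.05, 1 by DESeq2, 0 by limma, 1 with the replicate block). For BCR-ABL1 against EV the replicate block called 8 rises, while 0 were called without either BCR-ABL1 library and 1 without EV replicate 2, C-MYC replicate 1 or C-MYC replicate 2. Ung and Msh6 rose in the comparison in which most S phase genes rose, and whether their rise follows the share of cells in S phase was not tested.

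**Figure D4:**
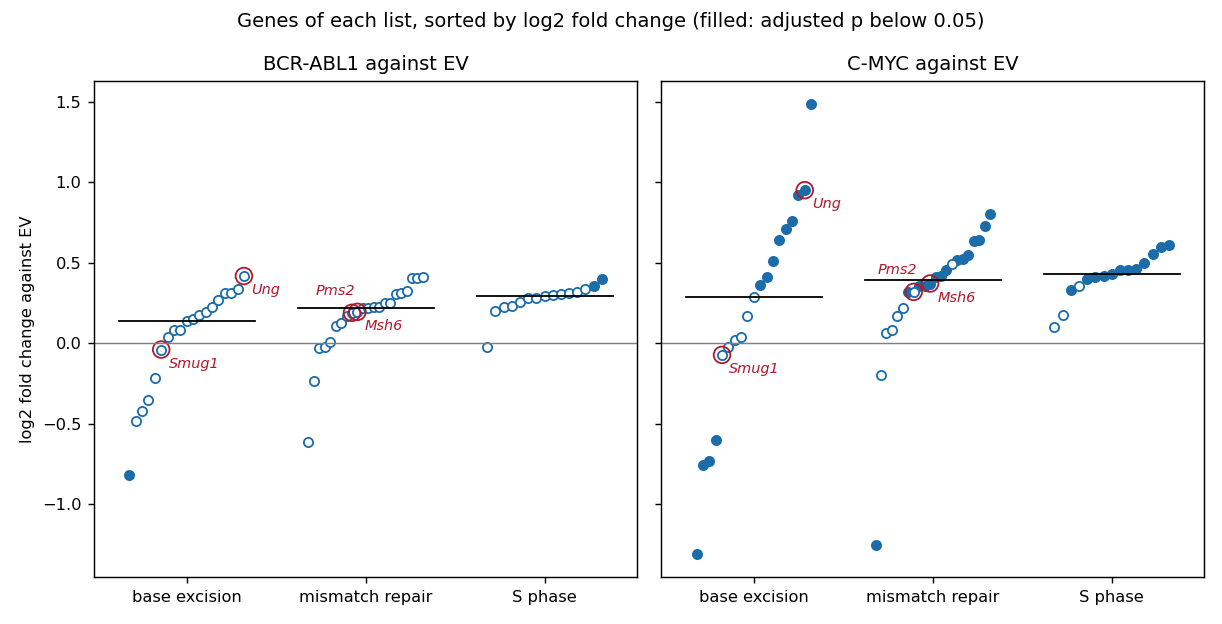
Log2 fold changes against EV (vertical axis) of the genes of 3 lists, sorted within each list, with the list's median as a line and the members circled. Filled points passed an adjusted p below 0.05. In C-MYC the medians are 0.28, 0.39 and 0.43, and in BCR-ABL1 0.14, 0.21 and 0.29.

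Over the 6 libraries, the genes whose log2 CPM was most like that of each member were found by Pearson's r among the 10622 genes that averaged 50 or more counts. They were Set and Slc25a12 for Ung (0.999 and 0.999), Zswim3 and Tmem129 for Smug1 (0.988 and 0.987), Lsm7 and Gnl3l for Msh6 (0.998 and 0.998), Psmb6 and Acvr2b for Pms2 (0.998 and 0.996), Scd1 and Phf12 for Apobec3 (0.991 and 0.990), and Bace1 and Otub2 for Apobec1 (0.991 and 0.990). Each r was picked as among the highest of 10622 over only 6 libraries, so the search alone can give high values. How high an r unrelated genes would reach was not tested. The points also share their libraries, so these are descriptions only.

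**Figure D5:**
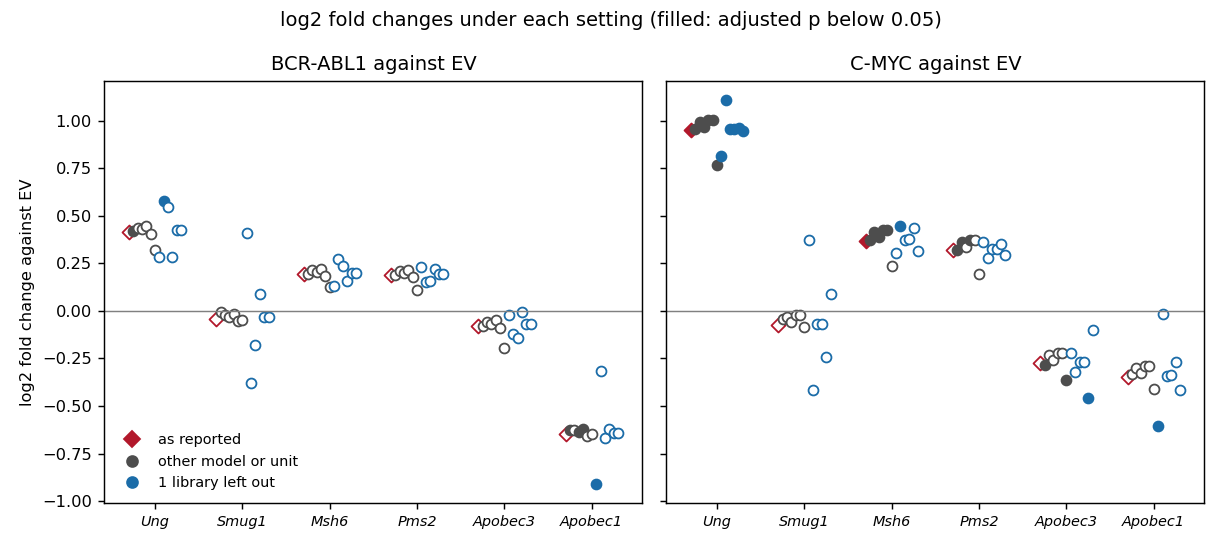
Log2 fold changes against EV (vertical axis) of the 6 genes as reported (diamonds), under other models or units, and with 1 library left out (blue). Filled points passed an adjusted p below 0.05. Ung in C-MYC passed under every setting tried, at 0.77 to 1.11, while Smug1 lies on both sides of 0.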

How the data were processed

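RNA-seq of 53BP1-/- B cell precursors with EV, BCR-ABL1 or C-MYC (2 libraries each) was used, and the ChIP-seq samples were not analysed here. The authors aligned reads to GRCm38/mm10 with STAR 2.5.0 and made the deposited raw counts per gene, which carry no normalization. The counting program and its strand setting are not given in the sources used here, so sense and antisense reads cannot be told apart. The deposited FPKM values were made with StringTie 1.3.0.

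All 6 libraries were fitted in 1 edgeR 4.0.16 model (R 4.3.3) with condition only, TMM scaling and filterByExpr, and genes were tested with the quasi-likelihood test and Benjamini-Hochberg adjustment over 12786 genes. Genes were called below 0.05. The standard error is the absolute log2 fold change over the square root of F. The script was tested on simulated data. Alternatives were DESeq2 1.42.0, limma 3.58.1 on log2(FPKM + 1), size factors, no filter, only the 4 libraries compared, leaving out each library and the replicate number as a block. Libraries with the same replicate number deviated together, with correlations of 0.273, 0.236 and 0.204 over 12786 genes, all over 0.1, although the labels do not say what the number marks, so the blocked value is given beside a result where it changes a call. Depth was 20687092 to 24095955 counts a library, and the common biological coefficient of variation was 0.151.

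Positions and exon lengths come from GENCODE M21 (GRCm38), with a length for 95.6% of genes. The members and lists were chosen with earlier results of these data known. Members and the deaminase list are named whatever their values. A list's gene is named when called with an absolute log2 fold change of at least 0.5, at most 5 a list and comparison. Mbd4 and Tdg, glycosylases of the base excision list, are named besides. Some genes of the lists are counted but not reported here by name.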

Additional observations from a re-analysis of the deposited data

How the results depend on the processing

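Of 216 log2 fold changes of the members under 12 alternatives, 186 kept their direction and their side of the threshold, 11 lost the call, 13 gained it and 6 turned sign, all 6 in Smug1 (leave-out ranges -0.38 to 0.41 for BCR-ABL1 against EV, -0.41 to 0.37 for C-MYC against EV and -0.12 to 0.21 for BCR-ABL1 against C-MYC, with 0.41, 0.09, 0.37, 0.09, -0.11 and -0.12 where it turned). With the replicate number as a block, 3224, 6631 and 4278 genes were called against 2180, 5515 and 2991 without it (BCR-ABL1 against EV, C-MYC against EV, BCR-ABL1 against C-MYC), and 2, 4 and 1 members against 0, 2 and 1. The blocked fit changed the call of Apobec1 and Ung in the first comparison and of Apobec3 and Pms2 in the second, and no other member's. In BCR-ABL1 against EV, 1 member was called with no filter and 1 by DESeq2. In BCR-ABL1 against C-MYC, 0 were called by limma on FPKM (1 with an unadjusted p below 0.05), and 4538 genes with only the 4 libraries compared. Leaving out each library in turn called 665 to 2729, 3329 to 6077 and 618 to 4519 genes in the 3 comparisons, and 0 to 1, 1 to 2 and 0 to 1 members. A lone library was then assumed to vary like the others. The 18 FPKM means moved when counts per kilobase of exon were used in their place. The members had at least 168 counts in each library, and the effect of depth was not tested. The cause of these shifts was not tested.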

Other observations

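The counts and FPKM of Tdg, a thymine glycosylase of the base excision list, did not agree: it had 0 and 1 counts in EV libraries, 0 and 1 in those of BCR-ABL1 and 1 and 1 in those of C-MYC, but 60.5 and 62.4, 22.3 and 65.7, and 68.7 and 66.2 FPKM. It did not pass the filter on counts, so it has no test.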
